A study of Homo sapiens with 6 samples.

Results

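Interferon-stimulated genes are the antiviral genes that cells switch on after interferon binds its receptor. A set of 45 of them was chosen by symbol from a written list and found among the 55765 genes of a count table from OCI-AML2 cells, an established human line derived from acute myeloid leukaemia. All 45 had a row. They comprise 5 genes of STAT and IRF transcription factors and 40 genes of effectors, the proteins that sense, degrade or block viruses or that tune the response. The table held 3 libraries of cells given 100 nM MRT199665 for 48 h and 3 libraries of cells given vehicle alone for 48 h. Both groups came from the same line, grown from single-cell clones, and the libraries read the 3′ ends of messenger RNAs. MRT199665 is labelled as an inhibitor of the MARK kinases, and its known targets include the SIK kinases. Whether the 3 libraries of each group are separate cultures is not stated in the labels. The p-values therefore describe the spread among these libraries, and that spread may be technical.

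Type I interferons bind a receptor made of IFNAR1 and IFNAR2, which carry the kinases TYK2 and JAK1. The kinases phosphorylate STAT proteins, and STAT2 joins IRF9 in the complex ISGF3, which binds the interferon-stimulated response element in promoters. IRF1 and IRF7 belong to the same factor family and can bind related elements, and IRF2 is known mainly as a repressor there. Monocytic cells carry this pathway, and several of its genes are expressed at a resting level without added interferon.

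The promoter windows below show where the response element, or a form close to it, lies in some of the members. They are printed for OAS1 and IFI35, the members that passed the test between the groups, and for the most abundant tested members that held the response element and had a positive (BST2, SAMD9) or negative (EIF2AK2, MX1) log2 fold change. Each runs 5′ to 3′ from 160 bases before to 25 bases after the RefSeq start of the gene on GRCh38.p14. Capitals mark each match, on either strand, to GAAANNGAAA, the core of the response element, or to GAAANGAAA, the same repeat with 1 base between the GAAA units.
OAS1: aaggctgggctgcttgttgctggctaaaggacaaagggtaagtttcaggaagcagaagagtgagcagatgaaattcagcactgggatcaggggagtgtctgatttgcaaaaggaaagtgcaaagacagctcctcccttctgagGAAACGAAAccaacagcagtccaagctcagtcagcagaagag
IFI35: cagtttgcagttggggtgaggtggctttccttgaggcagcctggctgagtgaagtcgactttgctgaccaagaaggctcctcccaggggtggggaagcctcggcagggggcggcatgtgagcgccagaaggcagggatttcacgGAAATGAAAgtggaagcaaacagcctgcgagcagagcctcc
BST2: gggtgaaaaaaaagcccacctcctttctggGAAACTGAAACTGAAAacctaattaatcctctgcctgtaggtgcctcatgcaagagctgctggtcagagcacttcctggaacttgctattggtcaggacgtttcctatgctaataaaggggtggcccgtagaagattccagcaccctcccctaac
SAMD9: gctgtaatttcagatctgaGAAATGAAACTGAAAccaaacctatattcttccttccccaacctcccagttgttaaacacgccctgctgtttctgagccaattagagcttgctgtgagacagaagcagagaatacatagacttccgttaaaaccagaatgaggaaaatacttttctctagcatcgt
EIF2AK2: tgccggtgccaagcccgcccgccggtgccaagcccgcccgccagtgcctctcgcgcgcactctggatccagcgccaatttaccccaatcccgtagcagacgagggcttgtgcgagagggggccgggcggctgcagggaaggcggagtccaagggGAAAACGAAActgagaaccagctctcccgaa
MX1: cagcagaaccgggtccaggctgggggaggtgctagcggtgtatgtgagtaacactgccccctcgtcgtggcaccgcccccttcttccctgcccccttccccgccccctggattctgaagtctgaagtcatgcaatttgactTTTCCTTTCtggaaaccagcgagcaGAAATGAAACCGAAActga
The windows lie at chr12:112906802-112906986, plus strand (OAS1), chr17:43006624-43006808, plus strand (IFI35), chr19:17405606-17405790, minus strand (BST2), chr7:93117955-93118139, minus strand (SAMD9), chr2:37156956-37157140, minus strand (EIF2AK2) and chr21:41420398-41420582, plus strand (MX1). The MX1 window is the first of its 3.

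OAS1 and IFI35 each held the form with 1 base between the GAAA units and not the form with 2. Counting the first transcribed base as 1 and the base before it as -1, the match began at -17 in OAS1 and at -16 in IFI35. BST2 held a pair of overlapping GAAANNGAAA matches at -130 and -124, and EIF2AK2 held a single one at -6. Of the 45 members, 33 had a promoter window in the RefSeq table, DDX58 under its newer symbol RIGI. Within the full windows, which run from 250 bases before to 50 bases after the start, GAAANNGAAA occurred in 21 of the 33 (63.6%), against 4.38% of all 27305 genes of the table. GAAANGAAA occurred in 11 (33.3%, against 3.87%), and TTCNNNGAA, the gamma-activated site, in 8 (24.2%, against 9.38%). The first 2 forms can share bases, as they do in SAMD9 and MX1. The form with 1 base between the GAAA units was searched after the values were seen. A match is a description of letters and shows no binding.

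Few interferon-stimulated genes passed the test between MRT199665 and vehicle. OAS1, which makes the 2′,5′-oligoadenylate signal that activates ribonuclease L, and IFI35, an interferon-induced leucine zipper protein, rose, and no member was called lower. Of the 45 members, 32 passed the filter on low counts, about 0.839 CPM in at least 3 libraries, and were tested, and 2 were called higher (edgeR quasi-likelihood test, Benjamini-Hochberg adjusted p under 0.05). Over all 13053 genes tested, 0.850% were called higher and 0.398% lower. DESeq2 called 3 members higher (OAS1, IFI35 and IRF7), with 1.66% of its genes higher and 1.12% lower, and limma-voom called 2, with 0.820% higher and 0.383% lower. Neither tool called a member lower. In edgeR 2 members (IRF1 and SAMD9L) had a negative log2 fold change with an unadjusted p under 0.05. On the positive side 9 of the 32 members had an unadjusted p under 0.05, against 7.64% of all genes tested, and on the negative side the share of all genes was 7.11%. The median log2 fold change of the tested members was 0.24, with 23 of 32 positive, against a median of 0.01 and 50.9% positive over all genes tested. These counts describe only the members that passed the filter on low counts. OAS1, ISG20 and IRF9 were at the filter's level in all 3 MRT199665 libraries but in only 1, 2 and 2 vehicle libraries. They therefore passed mainly through the MRT199665 libraries. USP18 was at it in all 3 vehicle libraries and in 2 MRT199665 libraries. Members said below to reach the filter in both groups were at its level in all 6 libraries. Of the 24 such effectors, edgeR called 1 higher (IFI35), and 17 had a positive log2 fold change. An unadjusted edgeR p under 0.05 was reached by 6 of them on the positive side and 1 on the negative side. Of the 4 such factors, edgeR called 0 and 3 were positive, and 1 on each side had an unadjusted p under 0.05.

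**Figure D1:**
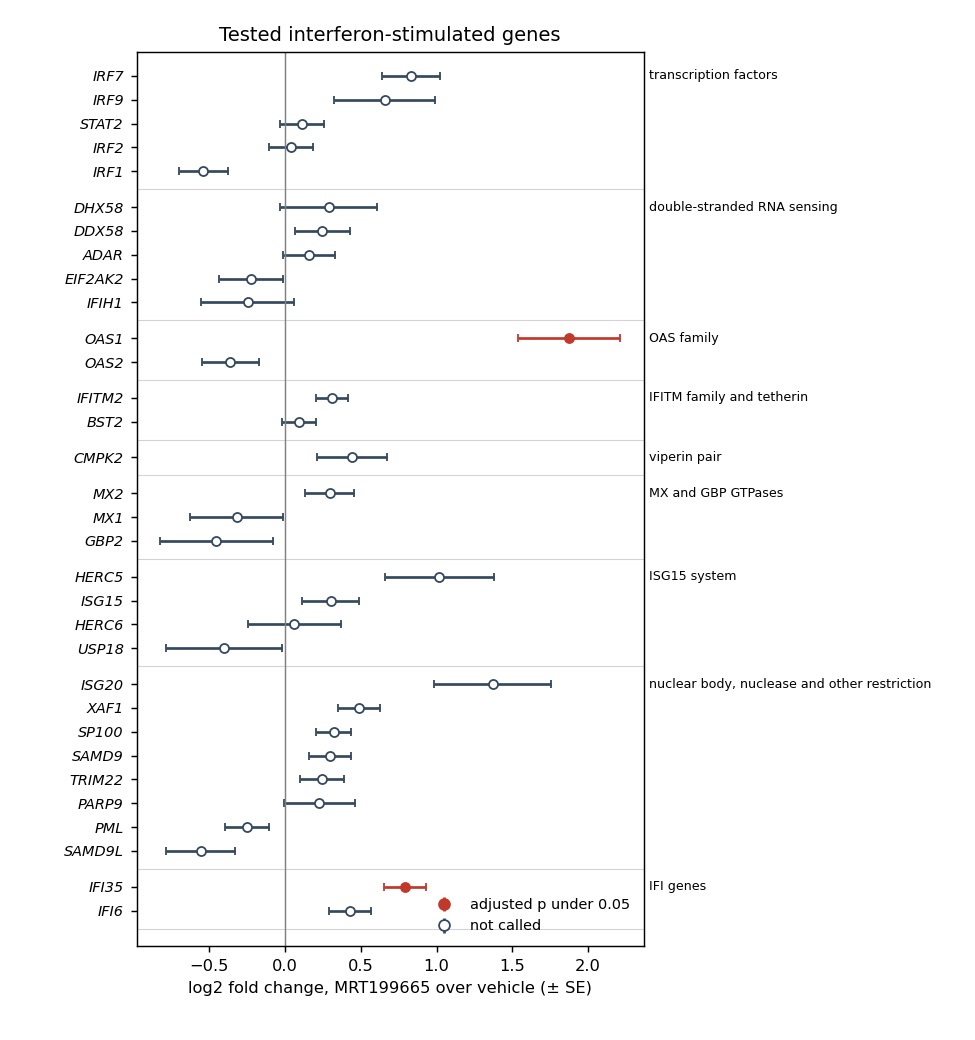
Log2 fold change (MRT199665 over vehicle, x axis) with its SE for each of the 32 tested interferon-stimulated genes, grouped by role; filled red points had an adjusted p under 0.05. OAS1 (1.88) and IFI35 (0.79) were called, and the log2 fold changes of the other members lay between -0.56 (SAMD9L) and 1.37 (ISG20).

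OAS1 stood at 2.109, 3.035 and 2.405 CPM (the count relative to the library total, with totals scaled by TMM) in MRT199665 replicates 1, 2 and 3, and at 0.502, 0.599 and 0.914 CPM in vehicle replicates 1, 2 and 3. Every MRT199665 library was above every vehicle library. The means were 2.52 ± 0.473 and 0.672 ± 0.215 CPM (SD, n = 3 per group), a 3.67-fold difference (log2 fold change 1.88 ± 0.34, SE, edgeR adjusted p = 0.0387). The vehicle libraries held 6, 7 and 9 counts of OAS1, so the fold change rests on 22 counts against 80. In GENCODE 29, an annotation on a later build than that of the counts, exons of OAS1 overlap those of an antisense gene, and without the strand setting their reads cannot be told apart. Exons of 17 of the 45 members overlap those of another gene there. In bulk RNA, more cells with a transcript and more of it in each cell cannot be told apart.

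IFI35 stood at 29.98, 29.01 and 32.04 CPM in MRT199665 replicates 1, 2 and 3, and at 15.2, 17.8 and 19.7 CPM in vehicle replicates 1, 2 and 3. The groups did not overlap, and every MRT199665 library was higher. The mean was 30.3 ± 1.55 against 17.6 ± 2.24 CPM (SD, n = 3 per group), 1.73-fold higher (log2 fold change 0.79 ± 0.14, SE, edgeR adjusted p = 0.0350). No other gene's exons overlap IFI35 in GENCODE 29. Both calls ended in each fit without 1 of the 6 libraries, at an adjusted p between 0.0961 and 0.191 for OAS1 and between 0.0622 and 0.197 for IFI35, while the log2 fold change stayed between 1.70 and 2.14 and between 0.70 and 0.88.

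None of the 5 STAT and IRF members was called by edgeR, and DESeq2 called 1 of them, IRF7. STAT2, the transactivating subunit of ISGF3, stood at 48.0, 43.8 and 44.1 CPM in MRT199665 replicates 1, 2 and 3, and at 35.2, 40.8 and 49.9 CPM with vehicle. The groups overlapped, and vehicle replicate 3 was the highest of the 6 libraries. Its log2 fold change was 0.11 ± 0.15 (SE, edgeR adjusted p = 0.778). IRF9, the DNA-binding subunit of ISGF3, stood at 1.66, 1.69 and 1.63 CPM with MRT199665 and at 1.42, 0.685 and 1.02 CPM with vehicle. The MRT199665 libraries were all higher, but the gene had only 55 counts in them and 35 in the vehicle libraries, and its log2 fold change of 0.66 ± 0.34 (SE) had an edgeR adjusted p of 0.411. IRF9 exons overlap those of another gene on the same strand in GENCODE 29.

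IRF7 and IRF1 were the factors with an unadjusted p under 0.05, and their log2 fold changes had opposite signs. IRF7, which drives the amplifying phase of type I interferon production, stood at 9.72, 12.6 and 8.91 CPM with MRT199665 and at 5.69, 6.42 and 5.18 CPM with vehicle (replicates 1, 2 and 3). All MRT199665 libraries were above all vehicle libraries, at a mean of 10.4 ± 1.97 against 5.76 ± 0.624 CPM (SD, n = 3 per group). The log2 fold change of 0.83 ± 0.19 (SE) did not pass edgeR's test (adjusted p = 0.0895). It passed in DESeq2 (adjusted p = 0.0422) and in edgeR without a low-count filter (adjusted p = 0.0174), and in none of the other 13 alternatives, with a range over all 15 from 0.0174 to 0.344. IRF1, an activator induced mainly by interferon gamma, stood at 23.7, 16.9 and 19.7 CPM with MRT199665 and at 29.9, 32.4 and 25.7 CPM with vehicle. Here all MRT199665 libraries were below all vehicle libraries, and the log2 fold change of -0.54 ± 0.16 (SE) had an edgeR adjusted p of 0.170. IRF2 stood at 17.1, 13.2 and 16.4 CPM with MRT199665 and at 15.5, 15.8 and 14.4 CPM with vehicle. MRT199665 replicate 2 was the lowest and replicate 1 the highest of the 6 libraries, so the groups overlapped (log2 fold change 0.04 ± 0.15, SE). Exons of IRF1 overlap those of 2 genes on the other strand in GENCODE 29.

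**Figure D2:**
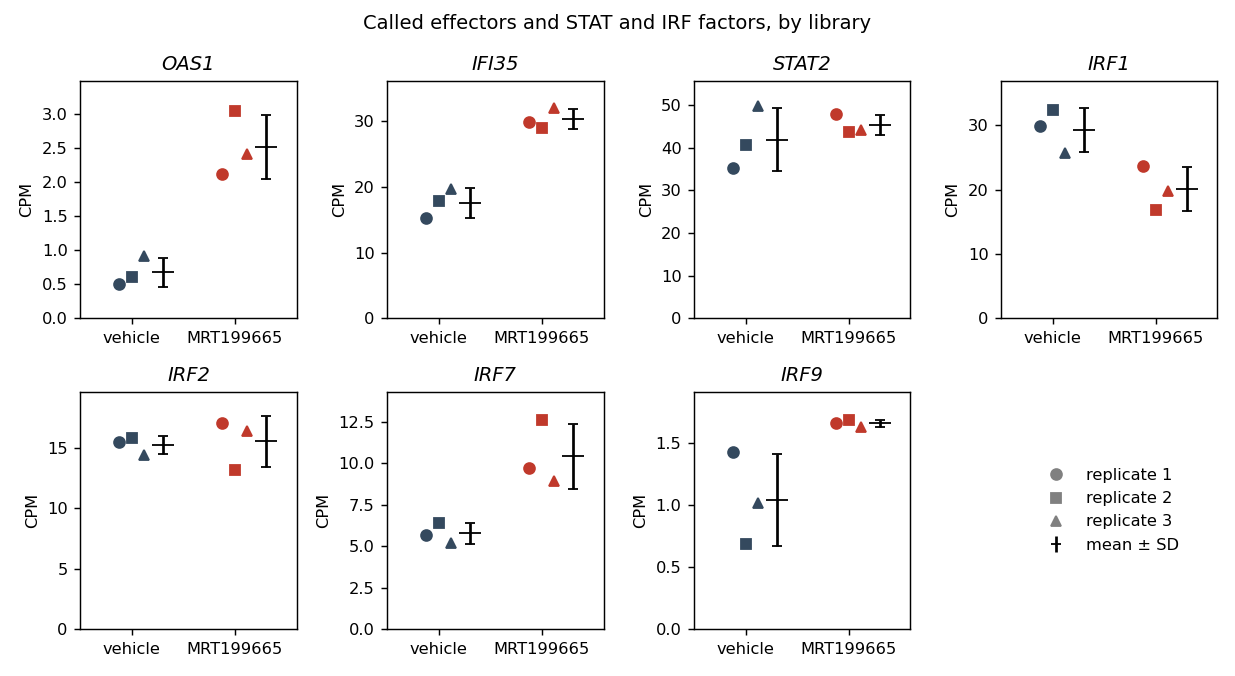
CPM (y axis, from 0) of the 2 called effectors and the 5 STAT and IRF factors in each library; symbols mark the replicate number and black bars the mean ± SD of 3 libraries. The groups are apart for OAS1, IFI35, IRF7 and IRF9 (MRT199665 above) and for IRF1 (MRT199665 below), and they overlap for STAT2 and IRF2.

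Effectors and factors were then set side by side. Of 40 effectors, 27 were tested, edgeR called 2 higher and 0 lower, and 19 had a positive log2 fold change, with a median of 0.25 and a range from -0.56 to 1.88. All 5 factors were tested, edgeR called 0 and DESeq2 1 (IRF7), and 4 were positive, with a median of 0.11 and a range from -0.54 to 0.83. Over all genes tested, edgeR called 0.850% higher and 0.398% lower, DESeq2 called 1.66% higher, and 50.9% were positive. Without vehicle replicate 3 the median of the factors was 0.25 and that of the effectors 0.28, and without vehicle replicate 1 they were 0.05 and 0.30. With only the members that reached the filter in both groups, the medians were 0.24 for 24 effectors and 0.08 for 4 factors. The libraries were fully apart, with MRT199665 above, for 10 of the 27 effectors and 2 of the 5 factors, against 11.4% of all genes tested. They were apart with MRT199665 below for 2 effectors (OAS2 and SAMD9L) and 1 factor (IRF1), against 10.8% of all genes tested. With only the members that reached the filter in both groups, the libraries were apart with MRT199665 above for 8 of 24 effectors and 1 of 4 factors (IRF7), against 11.4% of the 11664 genes that did so, and below for 2 effectors and 1 factor, against 11.2%. The difference between effectors and factors was not tested.

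The mean log2 CPM of the 27 tested effectors, centred per gene, was 0.121, 0.143 and 0.0755 in MRT199665 replicates 1, 2 and 3, and -0.153, -0.132 and -0.0548 in vehicle replicates 1, 2 and 3. For the 5 factors it was 0.184, 0.0657 and 0.0666 with MRT199665 and -0.0563, -0.129 and -0.131 with vehicle. The MRT199665 libraries lay above the vehicle libraries in both cases. However, OAS1, ISG20 and IRF9 are among these genes and reached the filter in every MRT199665 library but not in every vehicle library. USP18 did the reverse. Over the 24 effectors that reached the filter in both groups, the values were 0.0924, 0.119 and 0.0082 with MRT199665 and -0.0587, -0.116 and -0.0453 with vehicle. These groups were still apart, by less than with all 27. Over the 4 such factors, they were 0.150, -0.0029 and 0.0099 with MRT199665 and -0.101, 0.0313 and -0.0883 with vehicle, and vehicle replicate 2 lay above MRT199665 replicates 2 and 3. The groups of factors therefore overlapped without IRF9.

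**Figure D3:**
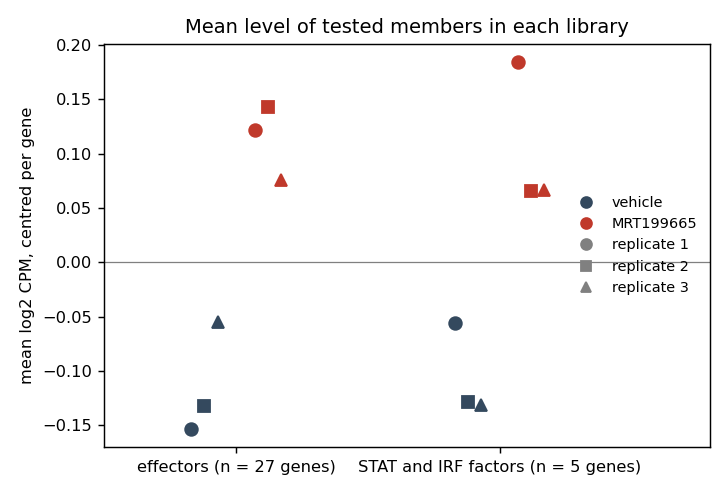
Mean log2 CPM, centred per gene (y axis), of the 27 tested effectors and the 5 STAT and IRF factors in each library, with symbols for the replicate number. For the effectors the MRT199665 libraries lie between 0.0755 and 0.143 and the vehicle libraries between -0.153 and -0.0548. For the factors the groups are apart with IRF9 and overlap without it.

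Among the effectors that sense or edit double-stranded RNA, all 5 were tested, none was called and each overlapped between the groups. ADAR, the editing enzyme that marks cellular RNA as self, stood at 71.7, 86.0 and 79.8 CPM with MRT199665 and at 87.0, 54.5 and 70.6 CPM with vehicle (replicates 1, 2 and 3). Vehicle replicates 1 and 2 held the highest and the lowest value of the 6 libraries. EIF2AK2, the kinase PKR that stops translation on sensing such RNA, stood at 10.7, 7.93 and 8.49 CPM with MRT199665 and at 8.04, 11.2 and 12.8 CPM with vehicle. It had a log2 fold change of -0.23 ± 0.21 (SE), with vehicle replicate 1 among the MRT199665 values. The helicase genes DDX58 (RIG-I), IFIH1 (MDA5) and DHX58 (LGP2) were at 0.25 ± 0.18, -0.25 ± 0.31 and 0.29 ± 0.32 (log2 fold change, SE).

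The tested OAS genes, OAS1 and OAS2, had log2 fold changes of opposite sign. OAS2, whose product also makes oligoadenylates, stood at 5.42, 4.38 and 5.45 CPM with MRT199665 and at 7.20, 5.74 and 6.91 CPM with vehicle. All MRT199665 libraries were below all vehicle libraries, with a log2 fold change of -0.36 ± 0.19 (SE, edgeR adjusted p = 0.426). OAS3 and OASL had 34 and 28 counts over all 6 libraries and were not tested. The IFIT family, which binds foreign RNA ends, had no tested member.

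Among membrane proteins, IFITM2, which blocks viral entry at endosomes, stood at 141, 152 and 160 CPM with MRT199665 and at 126, 123 and 117 CPM with vehicle (replicates 1, 2 and 3). The groups did not overlap, yet the difference was small, with a log2 fold change of 0.31 ± 0.11 (SE, edgeR adjusted p = 0.224). BST2, the tetherin that holds budding virions at the surface, stood at 111, 128 and 120 CPM with MRT199665 and at 114, 117 and 104 CPM with vehicle. Its groups overlapped (log2 fold change 0.09 ± 0.11, SE). IFITM1 was listed at 0 in all 6 libraries. IFITM1, IFITM2 and IFITM3 are close copies, and exons of IFITM1 and IFITM2 overlap on the same strand in GENCODE 29, so the split of reads between them is uncertain and the 0 was not read as absence.

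Of the interferon-induced GTPases, MX2, which blocks nuclear entry of viral genomes, stood at 11.1, 9.44 and 9.20 CPM with MRT199665 and at 8.04, 7.45 and 8.84 CPM with vehicle. The libraries were apart by a narrow margin (log2 fold change 0.29 ± 0.16, SE, edgeR adjusted p = 0.441). GBP2, a guanylate-binding protein that attacks pathogen vacuoles, stood at 2.34, 3.20 and 1.13 CPM with MRT199665 and at 3.27, 3.08 and 2.23 CPM with vehicle, and overlapped. MX1, the cytoplasmic relative of MX2, had a log2 fold change of -0.32 ± 0.30 (SE). GBP1 was listed at 0 in all 6 libraries, which was not read as absence.

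In the ISG15 system, a ubiquitin-like tag with its ligase and protease, no gene was called. ISG15, the tag, stood at 7.53, 8.09 and 9.34 CPM with MRT199665 and at 5.53, 7.11 and 7.72 CPM with vehicle. Vehicle replicate 3 lay above MRT199665 replicate 1, so the groups overlapped (log2 fold change 0.30 ± 0.19, SE). HERC5, the main ligase for ISG15, stood at 6.93, 15.5 and 7.29 CPM with MRT199665 and at 6.45, 3.85 and 3.76 CPM with vehicle. MRT199665 replicate 2 was far above the other 5 libraries, and without it the log2 fold change went from 1.02 ± 0.36 (SE, edgeR adjusted p = 0.231) to 0.59. The related HERC6 had a log2 fold change of 0.06 ± 0.30 (SE). USP18, the protease that removes ISG15 and also restrains the interferon receptor, was at -0.40 ± 0.38 (SE).

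Among nuclear body, nuclease and other restriction genes, 6 of 8 had a positive log2 fold change and none was called. ISG20, a 3′ to 5′ exonuclease, stood at 3.24, 3.20 and 3.54 CPM with MRT199665 and at 0.586, 2.05 and 1.22 CPM with vehicle. The groups did not overlap, and the spread lay in the vehicle libraries, with 7, 24 and 12 counts in replicates 1, 2 and 3. The log2 fold change of 1.37 ± 0.39 (SE) had an edgeR adjusted p of 0.149, and it was called only without a low-count filter (adjusted p = 0.00778, the lowest of 15 alternatives that ran up to 0.435). XAF1, a pro-apoptotic antagonist of XIAP, stood at 35.8, 40.1 and 34.5 CPM with MRT199665 and at 22.5, 27.2 and 28.8 CPM with vehicle. It was higher in every MRT199665 library, at 36.8 ± 2.95 against 26.2 ± 3.29 CPM (SD, n = 3 per group, edgeR adjusted p = 0.149), and its exons overlap those of another gene on the other strand in GENCODE 29.

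PML, the scaffold of nuclear bodies, stood at 66.6, 53.1 and 60.4 CPM with MRT199665 and at 64.8, 83.6 and 66.1 CPM with vehicle. MRT199665 replicate 1 lay above 2 of the vehicle libraries, so the groups overlapped (log2 fold change -0.25 ± 0.14, SE). SP100, a second nuclear body protein, had a log2 fold change of 0.32 ± 0.12 (SE) without overlap. The neighbouring paralogs SAMD9 and SAMD9L, which shut down translation on poxvirus infection, had opposite signs. SAMD9 was at 0.30 ± 0.14 and SAMD9L at -0.56 ± 0.23 (log2 fold change, SE), each without overlap between the groups and with edgeR adjusted p of 0.362 and 0.303. TRIM22, a ubiquitin ligase, and PARP9, an inactive partner of DTX3L, were at 0.24 ± 0.14 and 0.23 ± 0.23 (log2 fold change, SE), with overlap, and PARP9 shares exon bases with DTX3L in GENCODE 29.

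IFI6, a small mitochondrial and endoplasmic reticulum protein, stood at 18.6, 15.7 and 16.2 CPM with MRT199665 and at 11.6, 13.0 and 12.9 CPM with vehicle. It was higher in every MRT199665 library (log2 fold change 0.43 ± 0.14, SE, edgeR adjusted p = 0.193). CMPK2, a mitochondrial nucleotide kinase whose exons overlap RSAD2 on the other strand in GENCODE 29, stood at 3.69, 5.40 and 4.39 CPM with MRT199665 and at 3.77, 3.00 and 2.95 CPM with vehicle. Only vehicle replicate 1 overlapped the MRT199665 values, and the log2 fold change was 0.44 ± 0.23 (SE).

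The 13 untested members had between 0 and 52 counts over all 6 libraries. Where a gene has 0 counts, up to 3 remain possible, a level of 0.212 to 0.506 CPM depending on the library (counting error only). RSAD2, or viperin, which makes a chain-terminating nucleotide, had 11, 3 and 25 counts in MRT199665 replicates 1, 2 and 3, and 3, 7 and 3 with vehicle. IFITM3 had 15, 2 and 18 counts against 2, 10 and 3, so each of these genes overlapped between the groups. IFIT1 had 5, 0 and 3 counts with MRT199665 and 8, 7 and 4 with vehicle, and IFI44 had 0 in each MRT199665 library and 1, 3 and 1 with vehicle. In CPM, all MRT199665 libraries were below all vehicle libraries for both. IFIT2, IFIT3 and IFIT5 had totals of 30, 46 and 20 counts. IFI44L and IFI27 had 9 and 7 counts in all. In edgeR without a low-count filter none of the 11 untested members with a count was called, with IFIT1 at an adjusted p of 0.661 and IFI44 at 0.492.

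**Figure D4:**
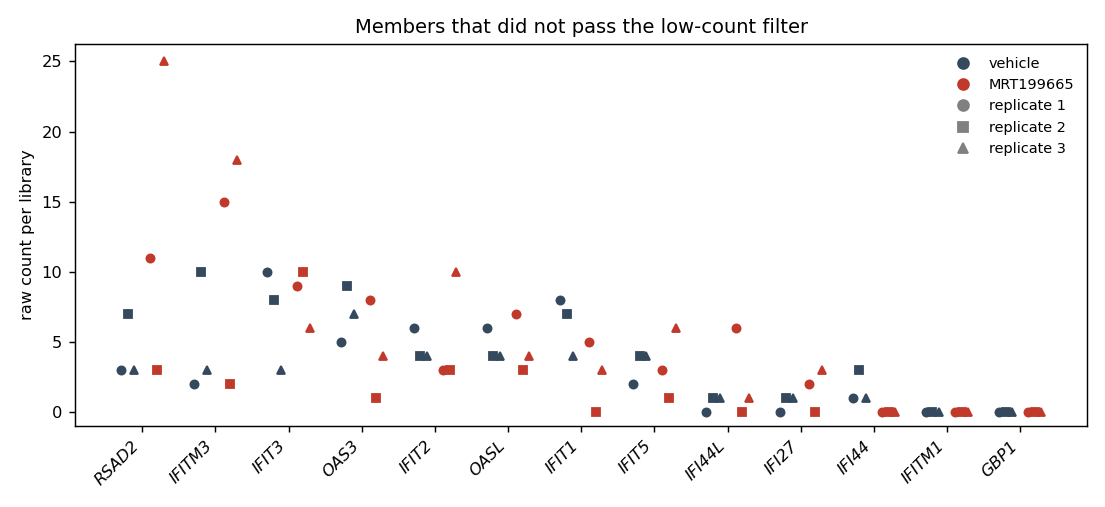
Raw counts per library (y axis) of the 13 members that did not pass the low-count filter, with symbols for the replicate number. No library exceeded 25 counts of any of them, and IFITM1 and GBP1 were at 0 in all 6 libraries.

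The rest of the pathway was examined through 57 other genes in 5 lists. Of these, 30 were tested, 1 was called higher and 0 lower, against 1.25% of all genes tested called in either direction, and 5 had a positive and 0 a negative log2 fold change with an unadjusted p under 0.05, against 7.64% and 7.11% of all genes tested. The 57 genes held 21 interferon ligands, of which 20 were at 0 in all 6 libraries and the other, IFNW1, had 1 count in all. How reads that map to several places were handled is not stated, so a 0 among the ligands was not read as absence.

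TYK2, the kinase bound to IFNAR1, was the called gene. It stood at 25.5, 31.5 and 28.4 CPM in MRT199665 replicates 1, 2 and 3, and at 16.6, 18.6 and 15.7 CPM in vehicle replicates 1, 2 and 3. The groups did not overlap, at a mean of 28.5 ± 3.00 against 17.0 ± 1.46 CPM (SD, n = 3 per group). It rose 1.67-fold (log2 fold change 0.74 ± 0.14, SE, edgeR adjusted p = 0.0454). The call ended without each of the 6 libraries (adjusted p between 0.0811 and 0.255), where the log2 fold change stayed between 0.67 and 0.81. Its partner kinase JAK1 had a log2 fold change of 0.13 ± 0.14 (SE). The receptor chains IFNAR1 and IFNAR2 were at -0.0051 ± 0.13 and -0.0014 ± 0.15 (log2 fold change, SE), with overlapping groups.

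Of 13 other STAT and IRF family genes and cofactors, 10 were tested and none was called. STAT6, which acts downstream of interleukin 4, had the lowest p. It stood at 97.8, 120 and 102 CPM with MRT199665 and at 79.0, 76.5 and 73.7 CPM with vehicle. The groups were apart, and the log2 fold change of 0.48 ± 0.12 (SE) had an edgeR adjusted p of 0.103 and a DESeq2 adjusted p of 0.0498, the lowest of 15 alternatives that ran up to 0.469. IRF5, a factor of monocytes and macrophages, was at 0.59 ± 0.16 and IRF3, which starts interferon production, at 0.02 ± 0.14 (log2 fold change, SE).

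Of 8 genes that induce interferon on sensing nucleic acids, all were tested and none was called. IKBKE, a kinase that phosphorylates IRF3 and IRF7, stood at 35.8, 40.1 and 40.8 CPM with MRT199665 and at 33.2, 24.5 and 27.9 CPM with vehicle. It was higher in every MRT199665 library (log2 fold change 0.45 ± 0.14, SE, edgeR adjusted p = 0.195). TMEM173, which encodes STING, and its upstream enzyme gene MB21D1 (cGAS) were at 0.04 ± 0.15 and 0.32 ± 0.23 (log2 fold change, SE).

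Of 6 genes that restrain the signal, 4 were tested and none was called. PTPN6, the phosphatase SHP-1 of blood cells, stood at 68.9, 86.2 and 76.5 CPM with MRT199665 and at 46.5, 54.0 and 56.1 CPM with vehicle. Its groups were apart, at a log2 fold change of 0.56 ± 0.13 (SE, edgeR adjusted p = 0.0912). Over the 15 alternatives it ran from 0.0297 in DESeq2 to 0.382. SOCS1 and SOCS3, feedback inhibitors of JAK kinases that interferon induces, had 9 and 2 counts over all 6 libraries.

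**Figure D5:**
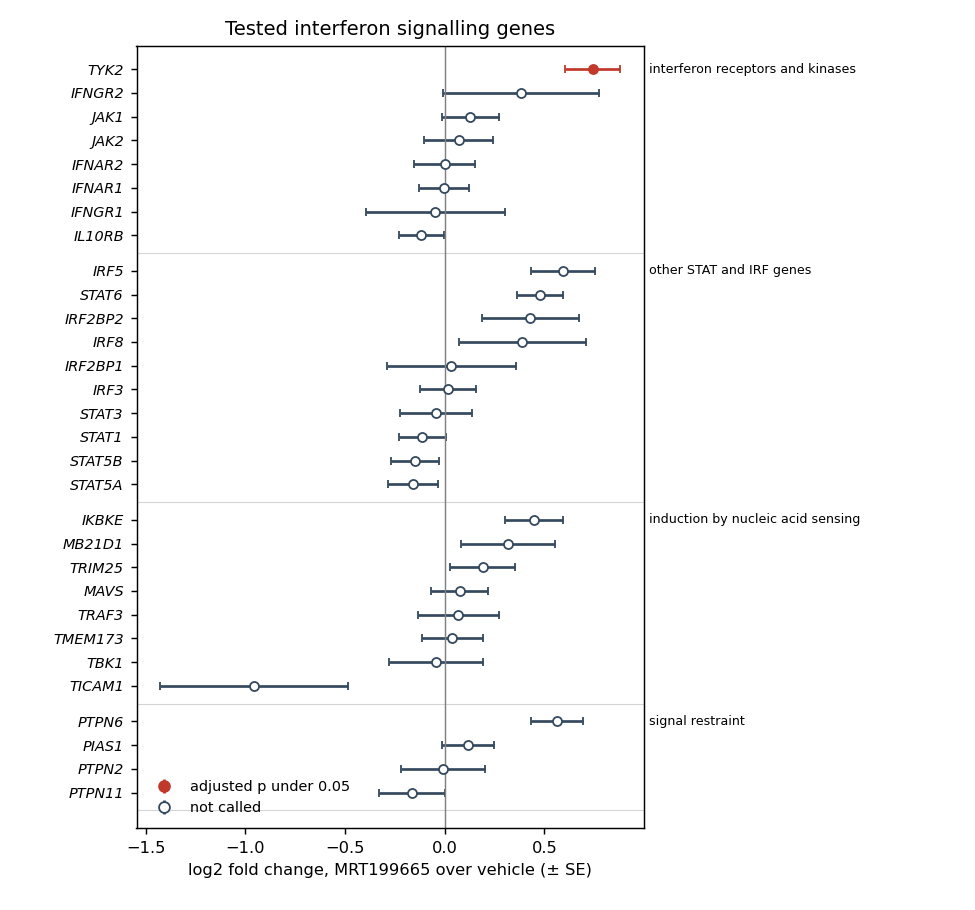
Log2 fold change (MRT199665 over vehicle, x axis) with its SE for the 30 tested genes of the interferon signalling lists; the filled red point had an adjusted p under 0.05. TYK2 (0.74) was called, and TICAM1 (-0.96) had the widest error.

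TICAM1, the TRIF adaptor of endosomal receptors, had the widest error of these genes. It stood at 5.95, 8.09 and 10.5 CPM with MRT199665 and at 29.7, 9.76 and 8.23 CPM with vehicle, so that vehicle replicate 1 alone was high. The groups overlapped and the log2 fold change of -0.96 ± 0.47 (SE) did not pass edgeR's test (adjusted p = 0.393). TICAM1 was named after its values were seen.

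Totals ran from 5871097 counts (MRT199665 replicate 2) to 14308650. MRT199665 replicate 2 and vehicle replicate 2 stood at opposite ends of the first principal component, at 48.4 and -36.8, and without both neither OAS1 (adjusted p = 0.136) nor IFI35 (0.0710) nor TYK2 (0.0780) was called by edgeR. Of 6 myeloid markers 5 were tested, CEBPA was listed at 0 in all libraries, and their summed level was 192 to 212 CPM with MRT199665 and 154 to 173 CPM with vehicle. Of 4 plasmacytoid dendritic cell markers IL3RA was at 0, and their sum, mostly the more widely expressed TCF4, was 24.8 to 32.2 against 29.1 to 30.8 CPM. Of 6 T and NK cell markers CD2 was at 0, and their sum, mostly NKG7, was 9.72 to 11.1 against 7.37 to 7.92 CPM. Of 4 B cell markers MS4A1 was at 0, and their sum was 5.88 to 8.43 against 6.11 to 8.48 CPM. The 4 erythroid markers were at 0, and the 6 fibroblast and epithelial markers summed to at most 1.58 CPM, with COL3A1 and KRT18 at 0. How reads that map to several places were handled is not stated, so a 0 among these markers was not read as absence. The myeloid and the T and NK sums moved with the groups, and their part in the results was not tested. Within the myeloid list, MPO, CD33 and LYZ were higher in every MRT199665 library (log2 fold change 0.47, 0.32 and 1.22), SPI1 overlapped (0.05) and ANPEP was lower in every MRT199665 library (-0.93), none of them called by edgeR.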

How the data were processed

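Counts per gene were available for 6 OCI-AML2 libraries, 3 with MRT199665 and 3 with vehicle, grouped and numbered by the labels. Per the labels' protocols the libraries were made with a Lexogen 3′ kit. The build hg19 and the tools HTSeq 0.6.1, STAR 2.4 and DESeq2 are named per the submitters' processing notes. Annotation, strand setting and filters are not given in the sources used here. Values in the deposited table are whole-number counts per gene symbol, not normalized.

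All genes were fitted with the quasi-likelihood test of edgeR 4.0.16 (R 4.3.3, TMM, group as the only term) after filterByExpr with a minimum count of 10 and a minimum total of 15. Benjamini-Hochberg adjustment ran over the 13053 genes left, two-sided, with calls under 0.05. Each SE was computed as the absolute log2 fold change over the square root of F. Log2 CPM used a prior count of 2. The fit was tested on simulated data, drawn independently for each library with dispersions fitted to these libraries. Such counts differ between libraries only by totals, group and random spread. That test therefore does not bear on how far calls depend on single libraries. Chi-square per degree of freedom between libraries of a group was 8.59 or more, so none was counted as a copy of another.

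The members, lists and tests were chosen with earlier results of these data known. Per-library values are given for called members, the factors, the 2 most abundant tested members of each class, the 5 members with the lowest p, and called or lowest-p genes of the signalling lists. Alternatives were RLE and upper-quartile scaling, 2 other low-count filters, DESeq2 1.42.0, limma-voom (limma 3.58.1), the replicate number as a block and leaving out each library. Added after seeing the data were leaving out both replicates 2 and the newer quasi-dispersion of edgeR. Promoter sequences are from RefSeq (GRCh38.p14), searched by exact letters on both strands, and GENCODE 29 gave exon overlaps, by name only.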

Additional observations from a re-analysis of the deposited data

How the results depend on the processing

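The number of members called higher was 2 in the reported fit, where 111 of 13053 genes were called higher. Across 15 alternatives it was 5 without a low-count filter (HERC5, IFI35, IRF7, ISG20 and OAS1, with 373 of 28230 genes called higher). With a minimum count of 30 it was 1 (IFI35, with 100 of 10604, where OAS1 was not among the genes tested). Without any 1 library it was 0 (range 0 to 0), with 29 of 13452 to 78 of 13459 genes called higher. Without both replicates 2 it was 0, with 92 of 13272. In the fits without 1 library or without both replicates 2, fewer genes were called higher over the whole table than the 111 of the reported fit. The fall was smallest without both replicates 2. With only 2 members called in the reported fit, whether the 0 is particular to the members cannot be told. The number of signalling genes called was 1 in the reported fit. It was 3 without a low-count filter, with 373 genes called higher and 271 lower of 28230. In DESeq2 it was also 3, with 217 higher and 146 lower of 13052. Without any 1 library it was 0 (range 0 to 0), with 29 to 78 genes called higher and 20 to 55 lower. Without both replicates 2 it was 0, with 92 higher and 45 lower of 13272. No member was called lower in any alternative. Leaving out 1 library gave medians between 0.23 and 0.30 for the effectors and between 0.0512 and 0.253 for the factors. IRF2 ranged from -0.0330 to 0.134 without 1 library, with values of -0.0124 without MRT199665 replicate 3 and -0.0021 without vehicle replicate 3, and ADAR ranged from -0.00577 to 0.337 and was at -0.0616 without both replicates 2. The cause of these changes was not tested. Fits without a library also have fewer samples, and the part of that in the changes was not tested.

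With the replicate number as a block, 0 members and 0 signalling genes were called, and 7 higher and 5 lower genes over the whole table, against 111 and 52. The labels do not say that a number pairs libraries. Deviations of same-numbered libraries from their group means correlated at -0.55, -0.47 and 0.02. MRT199665 replicate 1 with vehicle replicate 2 stood at 0.53, and MRT199665 replicate 2 with vehicle replicate 1 at 0.48. The remaining pairs ran from -0.10 to 0.12. Deviations within a group sum to 0, so these values depend on each other and cannot settle whether libraries are paired.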
